A study of Mus musculus with 6 samples.

Results

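The genes described here encode products of the goblet cell, the mucus-secreting cell of the intestine, measured in the mouse pylorus, where the stomach opens into the duodenum. The 10 members are Itln1, Zg16, Clca3, Fcgbp, Spink4, Tff3, Muc2, Reg4, Agr2 and Spdef. They were taken by gene symbol from a matrix of 39179 genes, in which 12 rows carry these symbols; Muc2 has 3 rows, of which the highest was kept. Clca3 is the symbol in the deposited table of the gene now called Clca1, and its identifier ENSMUSG00000028255 carries the current name in the annotation. The list was selected on the RPKM values of these same libraries, with the difference between Sox2 KO and Sox2 WT already known, so every difference between the groups in a member is given as a description and supports nothing.

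RNA sequencing covered 6 libraries, 3 from each group. In Sox2 KO mice (Rosa26CreER; Sox2 fl/fl) a tamoxifen-activated Cre recombinase, driven from the broadly expressed Rosa26 locus, could delete both floxed alleles of Sox2, which encodes a transcription factor of foregut progenitor cells. Sox2 WT mice (Rosa26WT; Sox2 fl/fl) carried the same floxed alleles without Cre. All mice were of a C57BL/6 x 129 mixed background and received tamoxifen at 8 weeks of age, and their stomachs were collected after 2 more weeks. The samples' age label reads 8 weeks, and the series text gives 10 weeks. RNA came from the epithelium and mesenchyme of the pylorus after the muscle layer had been pulled away. Nothing in the labels ties the libraries to different animals, and p-values measure the spread between libraries, which may be technical. By the sex-linked genes given below, Sox2 WT replicate 1 is male and cannot share an animal with the female replicates 2 and 3. Where 3 values of a group are given, they stand in the order of replicates 1, 2 and 3.

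Goblet cells fill the intestinal mucus with a gel-forming mucin, MUC2, and with smaller proteins packed beside it: lectins, a secreted protease of the mucus, an IgG-binding mucus protein and trefoil peptides. The transcription factor ATOH1 starts the secretory lineage, SPDEF drives its maturation, and ER proteins such as AGR2 help fold the mucin. Stomach mucus is built on other mucins, MUC5AC at the surface and MUC6 in the glands, and AGR2 and SPDEF are also known from mucous cells of the stomach.

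The libraries were gastric by their defining genes: Muc5ac lay between 479 and 1215 RPKM and the surface trefoil gene Tff1 between 37094 and 61772 RPKM (reads per kilobase of gene model, scaled to library depth) over the 6 libraries. Sox2 itself averaged 10.3 ± 1.13 RPKM in Sox2 WT against 0.324 ± 0.106 RPKM after deletion (SD, n = 3 each), from 622 to 683 reads against 15 to 35. The exact permutation test (two-sided) returned p = 0.1, and 3 libraries against 3 can reach no smaller value. Depth was 22015344 to 32581740 reads in genes a library. Replicates 2 and 3 of Sox2 WT had 17014 and 14214 reads of Xist, the other libraries no more than 5, and the Y-linked gene Ddx3y had 0 in these 2 and at least 1154 in the other 4, so sex and genotype are partly confounded: the 1 male Sox2 WT library is replicate 1.

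The goblet label was only partly borne out by the data. The defining mucin Muc2 was under 1 RPKM in all 6 libraries, Reg4 was not detectable at this depth in 5 of them, and Atoh1 had 0, 0 and 0 reads in the 3 Sox2 WT libraries and 0, 1 and 1 in the 3 Sox2 KO libraries. Clca3, Agr2, Zg16, Fcgbp and Spink4 had means of 46.3 RPKM or more in both groups, and Itln1 in Sox2 KO only. The group is best read as secreted and secretory genes known from goblet cells, in libraries with few reads in the Muc2 rows. The Muc2 row kept had a gene model of 2016 bases, and Muc2 reads outside the modelled bases would not be counted.

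Promoter sequences are shown for 3 members that sit at different ends of this group: Itln1, with the largest difference between the genotypes, Fcgbp, an abundant mucus protein gene, and Muc2, which stayed near 0. Each is the 250 bases before the RefSeq start on GRCm38.p6, 5′ to 3′ on the gene's strand: chr1:171535295-171535544 on the minus strand for Itln1, chr7:28070986-28071235 on the plus strand for Fcgbp and chr7:141690090-141690339 on the plus strand for Muc2. Capitals mark matches to 6 short motifs searched on both strands: CATTGT for SOX factors, TGTTTAC for FOX factors, TTTATNG for CDX factors, the STAT6 palindrome, CAGCTG as an E-box and GATAAG for the factors of the GATA family.
Itln1: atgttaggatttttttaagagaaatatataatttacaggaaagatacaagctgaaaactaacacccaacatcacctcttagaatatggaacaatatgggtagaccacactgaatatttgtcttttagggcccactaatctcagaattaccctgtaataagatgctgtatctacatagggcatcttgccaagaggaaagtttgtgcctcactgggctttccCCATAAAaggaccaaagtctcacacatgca
Fcgbp: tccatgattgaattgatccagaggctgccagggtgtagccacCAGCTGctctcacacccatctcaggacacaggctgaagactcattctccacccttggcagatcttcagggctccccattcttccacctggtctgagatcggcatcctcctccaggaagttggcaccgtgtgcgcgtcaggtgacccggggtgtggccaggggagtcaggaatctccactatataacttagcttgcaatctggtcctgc
Muc2: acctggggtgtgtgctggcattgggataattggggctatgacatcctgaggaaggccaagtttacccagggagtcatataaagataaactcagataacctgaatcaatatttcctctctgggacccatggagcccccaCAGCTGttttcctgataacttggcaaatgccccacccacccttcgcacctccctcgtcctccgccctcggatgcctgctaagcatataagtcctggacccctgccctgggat

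RefSeq promoters were matched for 6 of the 10 members. The Itln1 window held 1 match, to the CDX letters at 30 to 24 bases before the start, and the Agr2 window held the same letters at 48 to 42 bases. Fcgbp had the E-box letters at 208 to 203 bases and Muc2 at 112 to 107 bases. Reg4 had 1 FOX and 1 GATA match, and the Spdef window had none of the 6. The SOX letters were in none of these 6 windows and in 10.7% of all 32851 RefSeq promoters; the CDX letters were in 9.81% of all promoters and the E-box letters in 13.0%. These 6 members thus shared no single motif of those searched, and Zg16, Clca3, Spink4 and Tff3 were not searched. The Itln1 window was 38.0% G and C and the Fcgbp window 56.4%, against a median of 52.4% over all promoters.

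**Figure D1:**
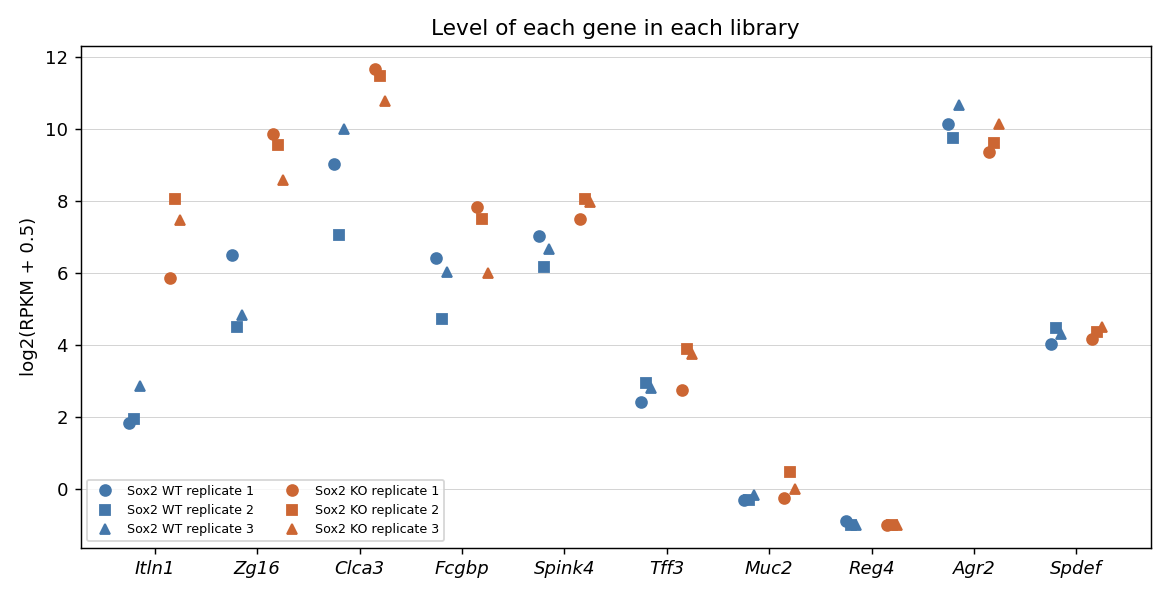
Level of the 10 genes in each library as log2(RPKM + 0.5); blue points are Sox2 WT, orange points Sox2 KO, and the marker shape gives the replicate number. For Itln1, Zg16, Clca3 and Spink4 the 3 Sox2 KO libraries lie above the 3 Sox2 WT libraries, while Muc2 and Reg4 stay at the bottom in both groups.

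The 2 lectins stood furthest apart between the groups. Itln1 (ENSMUSG00000038209, chromosome 1, 171518122 to 171535294, mm10) encodes intelectin 1, a lectin that binds microbial sugars. It was at 3.03, 3.34 and 6.68 RPKM in the 3 Sox2 WT libraries, from 83, 106 and 193 reads, and at 57.4, 266 and 176.5 RPKM in the 3 Sox2 KO libraries, from 1938, 8766 and 6783 reads. The groups did not overlap, and the lowest Sox2 KO library was 8.60 times the highest Sox2 WT library. Sox2 KO replicate 1 was well below the other 2 Sox2 KO libraries. The ratio of the group means was 38.3, and the log2 fold change, here always Sox2 KO minus Sox2 WT in log2(RPKM + 0.5) units, was 4.93 (SE 0.549).

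Zg16 (ENSMUSG00000049350, chromosome 7, 127050156 to 127087328) encodes a small lectin that binds the cell wall of Gram-positive bacteria. Its level was 89.0, 22.0 and 27.9 RPKM in the 3 Sox2 WT libraries and 930, 742 and 381 RPKM in the 3 Sox2 KO libraries. Again the groups did not overlap, with the lowest Sox2 KO library at 4.28 times the highest Sox2 WT library. Sox2 WT replicate 1, the male library of its group, was the highest of the 3. The log2 fold change was 4.06 (SE 0.547), and with sex as a covariate, which sets Sox2 KO against that library alone, it was 2.84 (SE 0.485). The Sox2 WT mean of 46.3 RPKM placed Zg16 at rank 1165 of 14045 genes, and the Sox2 KO mean of 685 RPKM at rank 47.

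Clca3 (chromosome 3, 145003817 to 145032776) encodes a secreted metalloprotease that is among the most abundant proteins of intestinal mucus besides MUC2. It was at 517, 131 and 1010 RPKM in the 3 Sox2 WT libraries, a wide spread, and at 3241, 2827 and 1729 RPKM in the 3 Sox2 KO libraries. The groups did not overlap, but the lowest Sox2 KO value was only 1.71 times the highest Sox2 WT value. The log2 fold change was 2.62 (SE 0.690). Clca3 dominated the reads of the group in Sox2 KO, with 171269 to 282077 reads. In Sox2 WT it had 10740 to 75304 reads, and fewer than Agr2 in replicate 2 (30576 reads). It took 0.0390% to 0.287% of all reads in genes in Sox2 WT and 0.531% to 0.866% in Sox2 KO, and ranked 17th of all tested genes in Sox2 KO by mean RPKM.

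Fcgbp (ENSMUSG00000047730, chromosome 7, 28071236 to 28120862) encodes the IgG Fc-binding protein, a large mucus component. It was at 85.1, 25.6 and 64.2 RPKM in the 3 Sox2 WT libraries and 225, 179.5 and 63.3 RPKM in the 3 Sox2 KO libraries. The groups overlapped, since Sox2 KO replicate 3 was below Sox2 WT replicates 1 and 3. The log2 fold change was 1.39 (SE 0.572), and with the sex covariate 0.68 (SE 0.790).

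Among the small secreted peptides, Spink4 (ENSMUSG00000028415, chromosome 4, 40920052 to 40931395), a Kazal-type protease inhibitor gene, was at 129, 70.8 and 101 RPKM in the 3 Sox2 WT libraries and 179, 262 and 249 RPKM in the 3 Sox2 KO libraries. The groups did not overlap, with a lowest Sox2 KO value 1.40 times the highest Sox2 WT value and a log2 fold change of 1.22 (SE 0.246). Tff3 (ENSMUSG00000024029, chromosome 17, 31125306 to 31129646), the intestinal trefoil peptide gene, was low: 4.82, 7.13 and 6.48 RPKM in Sox2 WT against 6.16, 14.3 and 13.0 RPKM in Sox2 KO. Sox2 KO replicate 1 lay within the Sox2 WT range, and the log2 fold change was 0.74 (SE 0.306). For its paralogs Tff1 and Tff2, the trefoil genes of the stomach, the difference was 0.16 (SE 0.594) and 0.15 (SE 0.389) on that scale.

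Muc2 (ENSMUSG00000025515, chromosome 7, 141690340 to 141754693), the gel-forming mucin of the intestine, was at 0.308, 0.301 and 0.389 RPKM in Sox2 WT and 0.333, 0.887 and 0.497 RPKM in Sox2 KO. The reads over all 3 rows of that symbol were 16, 18 and 21 in Sox2 WT and 21, 55 and 34 in Sox2 KO. The gene model of the row kept, recovered from the RPKM values, was 2016 bases. Reg4 (ENSMUSG00000027876, chromosome 3, 98222156 to 98236748), a C-type lectin gene, had 1 read in Sox2 WT replicate 1 and 0 reads in the other 5 libraries; a count of 0 allows up to 3 reads, or 0.0871 to 0.116 RPKM in those libraries, by counting error alone. Both fell under the filter of a mean of 0.5 RPKM and were not tested.

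The secretory machinery and its transcription factor did not follow the lectins. Agr2 (ENSMUSG00000020581, chromosome 12, 35992907 to 36004087), the ER disulfide isomerase gene, was at 1128, 850.1 and 1625 RPKM in Sox2 WT and 647, 780.2 and 1129 RPKM in Sox2 KO. The groups overlapped, and Agr2 was the 1 tested member with a negative log2 fold change, -0.48 (SE 0.309). Without Sox2 WT replicate 3, its highest library, that was -0.24, and without Sox2 WT replicate 2 it was -0.71. Spdef (ENSMUSG00000024215, chromosome 17, 27714352 to 27728955) lay between 15.9 and 21.8 RPKM in all 6 libraries, with a log2 fold change of 0.06 (SE 0.145). Leaving out 1 library moved that of Spdef between -0.05 and 0.17.

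In the fit across all 14045 tested genes, 0 of the 8 tested members passed an adjusted p of 0.05 (limma, Benjamini-Hochberg), where 0.0285% of all genes did (0.0142% higher and 0.0142% lower); limma's voom on recovered reads also passed 0 of 8, against 0.057% of all genes. At an unadjusted p under 0.05 there were 6 members, all higher in Sox2 KO, against 3.15% of all genes, of which 2.11% were higher and 1.04% lower. In 4 of the 8 the Sox2 KO libraries lay wholly above the Sox2 WT libraries, as they did in 4.09% of all genes; in 0 of the 8 they lay wholly below, as in 2.99% of all genes. The median log2 fold change was 1.30 over the 8 members and 0.02 over all tested genes. Since the list was made with this contrast known, these counts describe the choice of genes. In whole pylorus, more cells with a transcript and more transcript per cell cannot be told apart. With sex as a covariate the log2 fold change was 5.31 for Itln1 (SE 0.824), 2.28 for Clca3 (SE 1.05), 0.82 for Spink4 (SE 0.304) and 1.05 for Tff3 (SE 0.442). Without Sox2 WT replicate 1, Zg16 passed (limma log2 fold change 4.67, adjusted p = 0.0350, range over all alternatives 0.0350 to 0.479). That fit sets only female Sox2 WT libraries against male Sox2 KO libraries, so sex and genotype cannot be told apart in it. Itln1 passed without Sox2 KO replicate 1 (limma log2 fold change 5.56, adjusted p = 0.00520, range 0.00520 to 0.445).

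**Figure D2:**
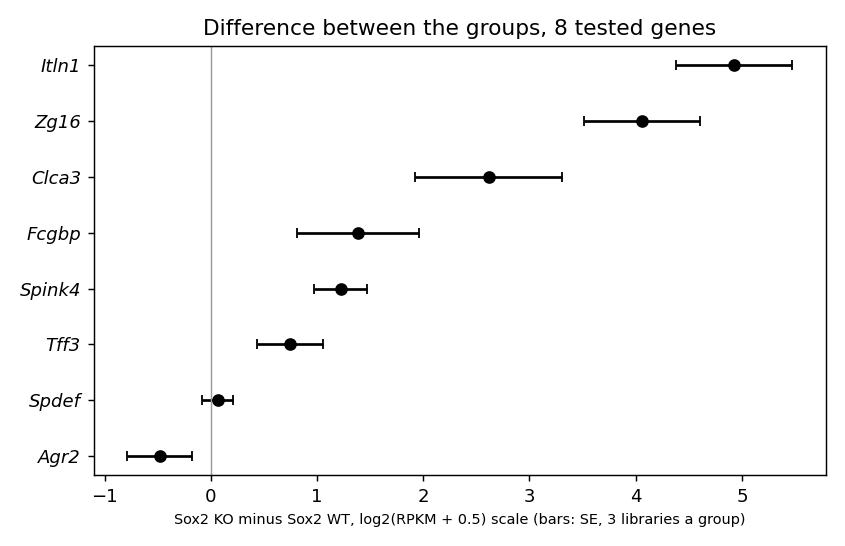
Log2 fold change, Sox2 KO minus Sox2 WT, in log2(RPKM + 0.5) units for the 8 tested genes, with bars of 1 SE from the fit over all genes and 3 libraries in each group. The values run from -0.48 for Agr2 to 4.93 for Itln1.

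The order of the members by level changed between the groups. In Sox2 WT the order of mean RPKM was Agr2, Clca3, Spink4, Fcgbp, Zg16, Spdef, Tff3, Itln1, Muc2 and Reg4. Of these neighbours, the library ranges overlapped between Agr2 and Clca3, between Spink4 and Fcgbp, between Fcgbp and Zg16 and between Tff3 and Itln1. In Sox2 KO the order was Clca3, Agr2, Zg16, Spink4, Itln1, Fcgbp, Spdef, Tff3, Muc2 and Reg4, with overlaps between Agr2 and Zg16, Spink4 and Itln1, and Itln1 and Fcgbp. Itln1 moved from below Tff3, at rank 8241 of all tested genes, to rank 225. Together the 10 genes took 0.186% to 0.560% of the reads in genes in Sox2 WT and 0.813% to 1.20% in Sox2 KO, and Clca3 made up 20.9% to 51.2% of their reads in the former and 65.3% to 72.0% in the latter.

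Within a group, the members did not all rank the libraries alike. In Sox2 KO, Zg16, Clca3 and Fcgbp were highest in replicate 1 and lowest in replicate 3. Itln1, Spink4 and Tff3 were lowest in replicate 1, where the first group was highest. Agr2 and Spdef were also lowest among the Sox2 KO libraries in replicate 1. In Sox2 WT, replicate 2 was the lowest library for Zg16, Clca3, Fcgbp, Spink4 and Agr2. The ratio of Itln1 to Zg16, both per length, was 0.0341, 0.152 and 0.239 in the 3 Sox2 WT libraries and 0.0617, 0.359 and 0.463 in the 3 Sox2 KO libraries, so the groups overlapped in it although neither gene's levels did. The ratio of Zg16 to Clca3 was 0.172, 0.168 and 0.0276 in Sox2 WT and 0.287, 0.263 and 0.220 in Sox2 KO.

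**Figure D3:**
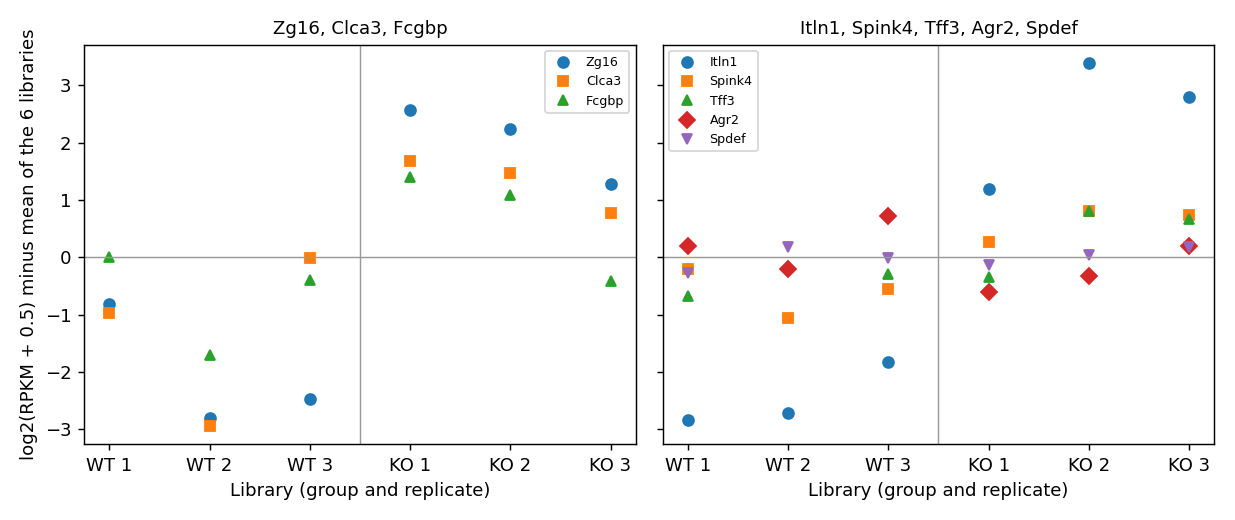
Each gene's log2(RPKM + 0.5) in each library minus its mean over the 6 libraries; the left panel holds Zg16, Clca3 and Fcgbp and the right panel Itln1, Spink4, Tff3, Agr2 and Spdef. Sox2 KO replicate 1 is the highest library for the 3 genes on the left and the lowest of the Sox2 KO libraries for the 5 on the right.

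Clca3, Fcgbp, Itln1 and Zg16 also varied more between libraries of 1 group than most genes did. The within-group SD on the log2(RPKM + 0.5) scale was 1.11 for Clca3, 0.93 for Fcgbp, 0.90 for Itln1 and 0.89 for Zg16. Between 98.7% and 99.5% of the tested genes had a smaller SD than these 4. Spink4 had an SD of 0.37 and Agr2 of 0.44, above 88.4% and 92.2% of genes. Spdef, with 0.19, was near the middle, above 53.7%.

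Of 10 genes of gastric mucus 9 were tested; 0 passed (limma and voom), 0 reached an unadjusted p of 0.05, and the median log2 fold change was 0.16. The gastrokine genes Gkn1 and Gkn2, surface cell products, had 0.25 (SE 0.517) and 0.29 (SE 0.590), and Gkn3 had the largest difference of the list, 0.41 (SE 0.271). The surface mucin gene Muc5ac was at 1215, 687 and 479 RPKM in the 3 Sox2 KO libraries and at 845, 613 and 1127 RPKM in the 3 Sox2 WT libraries. Like Clca3, Zg16 and Fcgbp, it was highest in Sox2 KO replicate 1 and lowest in replicate 3 of that group, but it overlapped between the groups (log2 fold change -0.18, SE 0.375). Set against Muc5ac in the same library, Clca3 was at 0.612, 0.214 and 0.897 times its level in Sox2 WT and 2.67, 4.11 and 3.61 times in Sox2 KO. Zg16 was at 0.0248 to 0.105 times the level of Muc5ac in Sox2 WT and 0.766 to 1.08 times in Sox2 KO. Fcgbp, which overlapped by level, was at 0.0418 to 0.101 times in Sox2 WT and 0.132 to 0.261 times in Sox2 KO. As a description, the libraries of the groups did not overlap in any of these 3 ratios. For Fcgbp this also reflects Muc5ac, which was itself lowest in Sox2 KO replicate 3. The share of all genes apart after division by Muc5ac was not computed.

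Other genes of goblet cells were taken from lists of 11 cell types and functions. Beside the counts of each list, 2.11% of all tested genes were higher and 1.04% lower at an unadjusted p of 0.05 (limma). Of 19 other goblet products 13 were tested; 0 passed (limma adjusted p and voom), 0 reached an unadjusted p of 0.05, and the median log2 fold change was 0.11. The kallikrein gene Klk1 (0.10, SE 0.188), Bcas1 (0.06, SE 0.237) and the calcium pump gene Atp2a3 (0.19, SE 0.157) were well expressed, and Muc13, a transmembrane mucin gene, had the largest difference, 0.50 (SE 0.217). Retnlb, the goblet cell resistin-like gene, had 0 reads in each Sox2 WT library and 1, 3 and 16 reads in the 3 Sox2 KO libraries.

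The factors and machinery that make a mucous cell showed small differences. Of 17 lineage factors 13 were tested and 0 passed (limma and voom), 0 were higher and 2 lower at an unadjusted p of 0.05, and the median was 0.01. Klf4, a factor of goblet cell maturation, had -0.16 (SE 0.209), the ETS factor Elf3 0.36 (SE 0.156), Xbp1, which expands the ER of secretory cells, 0.01 (SE 0.118) and Neurog3, the endocrine factor, -0.43 (SE 0.155). The intestinal factors Cdx1 and Cdx2 were under 1 RPKM in every library. Cdx2 had 13, 1 and 16 reads in Sox2 WT and 9, 52 and 50 reads in Sox2 KO. Replicates 2 and 3 of Sox2 KO thus stood above the rest. Among the Sox2 KO libraries, Itln1, Spink4, Tff3, Agr2 and Spdef were lowest in replicate 1, and Zg16, Clca3 and Fcgbp were highest there. The part of Cdx2 in the members' levels was not tested. Cdx1 had 0 to 3 reads a library. All 20 genes of ER folding and mucin assembly were tested; 0 passed and 0 reached an unadjusted p of 0.05 (limma; voom passed 0). Their log2 fold changes ran from -0.13 to 0.38, with Hspa5, the main ER chaperone gene, at -0.04 (SE 0.151), Calr at -0.04 (SE 0.150), P4hb at 0.23 (SE 0.170) and Dnajb9 at 0.38 (SE 0.202).

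Of 20 mucin glycosylation genes 18 were tested and 0 passed (limma and voom), 2 were higher at an unadjusted p of 0.05, and the median was -0.00. These were St3gal4 and Galnt5. The sialyltransferase gene St3gal4 had the largest value, 1.09 (SE 0.428). It was at 14.5, 12.4 and 4.65 RPKM in the 3 Sox2 KO libraries against 4.64, 2.67 and 5.83 RPKM in Sox2 WT, with overlap. Galnt5 (0.42, SE 0.131) was at 3.35 to 4.24 RPKM in Sox2 WT and 4.66 to 5.81 RPKM in Sox2 KO. Gcnt3 (0.01, SE 0.177), B3gnt3 (-0.02, SE 0.274) and Fut2 (0.23, SE 0.113), which build and cap mucin sugar chains, differed less. These 3 genes and St3gal4 had the order among Sox2 KO libraries seen in Zg16, Clca3 and Fcgbp. Galnt5 and Fut2 lay wholly above in Sox2 KO, as 4.09% of all tested genes did.

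**Figure D4:**
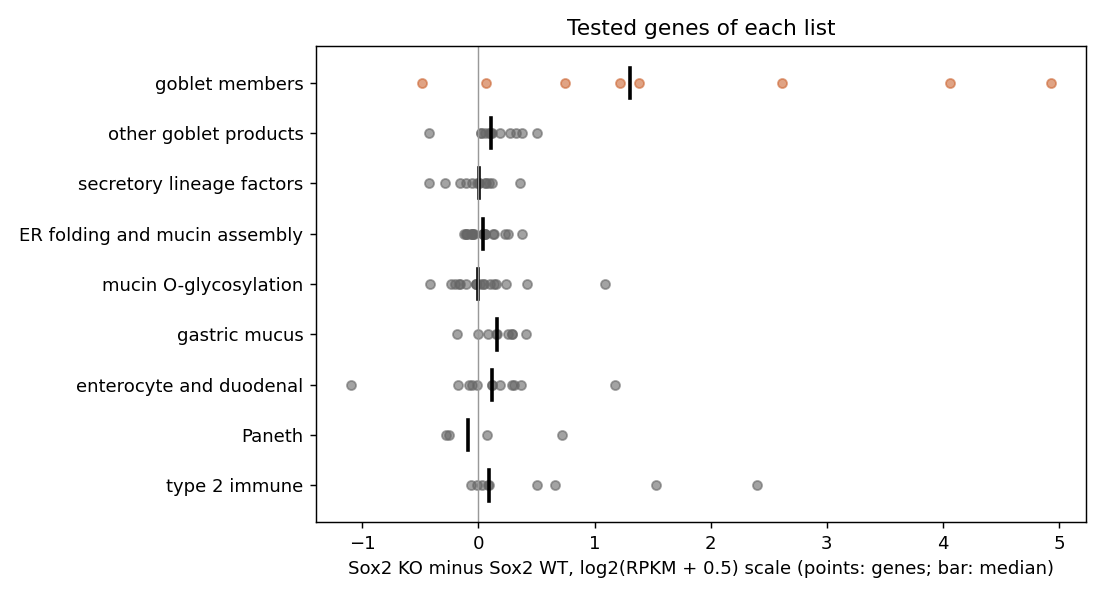
Log2 fold change, Sox2 KO minus Sox2 WT, in log2(RPKM + 0.5) units for the tested genes of each list, 1 point a gene, with the list median as a black bar. The 8 goblet members spread from -0.48 to 4.93, whereas the ER folding genes lie between -0.13 and 0.38.

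Close relatives of the members were mostly silent. Itln2, Itlnb and Zg16b were not analysed here, and the gene now named Spink1 has the symbol Spink3 in the table. Of the 18 relatives with a row, 10 were under 1 RPKM in every library. These were Clca2, Clca4, Clca5, Agr3, Reg2, Reg3a, Reg3d, Spink3, Muc5b and the row with the symbol Clca1, a gene now named Clca3a1 and distinct from the member. Clca6, the neighbour 28.8 kb from Clca3, was at 5.24 RPKM in Sox2 WT replicate 3 and no higher than 0.525 RPKM elsewhere. Of the 8 tested relatives 0 passed (limma and voom), and 0 reached an unadjusted p of 0.05. Reg1, Reg3b and Reg3g were at most 2.20 RPKM, and the gland mucin gene Muc6 lay between 73.9 and 96.6 RPKM in the 6 libraries.

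Of the neighbouring genes with enough signal to test, the log2 fold changes around Itln1 were 0.27 for Alyref2 (SE 0.180) and -0.03 for F11r, a junction protein gene (SE 0.132). Around Zg16, Kif22 had 0.30 (SE 0.267), Maz 0.22 (SE 0.168) and AI467606, 4.03 kb away, 0.56 (SE 0.132). Of these AI467606 had the smallest limma adjusted p, 0.629. It was at 15.5, 11.5 and 13.1 RPKM in Sox2 WT and 18.9, 19.1 and 21.5 RPKM in Sox2 KO, without overlap. Sox2 KO lay wholly above Sox2 WT in 4.09% of all tested genes. Around Clca3, Clca6 had -0.77 (SE 0.769), with its 1 high Sox2 WT library, and Odf2l 0.18 (SE 0.180). Around Spink4, Bag1 had 0.11 (SE 0.130) and B4galt1 0.08 (SE 0.152). Both neighbours of Itln1 at higher coordinates, Cd244 and Ly9, were under 0.5 RPKM on average and were not tested.

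Markers of other cell types that share these genes were checked beside them. For enterocytes and duodenum, 12 of 17 markers were tested and 0 passed (limma and voom), with 2 higher and 1 lower at an unadjusted p of 0.05. Their summed level was 485 to 701 RPKM in Sox2 WT and 433 to 607 RPKM in Sox2 KO. The retinol-binding protein gene Rbp2 (179.9 to 257 RPKM), the apolipoprotein gene Apoa1 (46.6 to 315 RPKM) and the villin gene Vil1 (52.9 to 92.2 RPKM) were the most abundant of the list, with log2 fold changes of -0.08 (SE 0.175), 0.29 (SE 0.624) and 0.11 (SE 0.204). The 2 markers higher at an unadjusted p of 0.05 (limma) were Fabp1 (1.18, SE 0.468) and Slc5a1 (0.37, SE 0.132). The marker lower at that threshold was the alkaline phosphatase gene Alpi (-1.10, SE 0.449). All 6 libraries had Sis and Mep1a listed at 0. Lct, Mep1b, Cdh17 and Mttp were under 1 RPKM, and Fabp1, a lipid-binding protein gene of duodenum, was at 2.93 ± 2.48 and 6.37 ± 2.34 RPKM (SD, n = 3 each) in Sox2 WT and Sox2 KO. The part of these cells in the members' levels was not tested. For Paneth cells, which also make intelectin, the summed level was 22.7 to 42.1 RPKM in Sox2 WT and 27.4 to 43.6 RPKM in Sox2 KO, 4 of 8 were tested and 0 passed (limma and voom), with 1 higher at an unadjusted p of 0.05. The marker that was higher was the phospholipase gene Pla2g2a, at 7.10, 6.78 and 3.38 RPKM in Sox2 WT and 7.08 to 11.003 RPKM in Sox2 KO (0.72, SE 0.286). The most abundant was Nupr1 (0.08, SE 0.358), while Lyz1 was at most 1.24 RPKM (-0.28, SE 0.415). Reg3g (-0.25, SE 0.203) was at 0.920 to 1.77 RPKM in Sox2 WT and 0.891 to 0.895 RPKM in Sox2 KO. Its Sox2 KO libraries lay wholly below its Sox2 WT libraries, as in 2.99% of all tested genes. The defining genes Ang4, Defa17 and Defa24 were listed at 0 in all libraries. The part of Paneth cells in the levels of Itln1 was not tested. Parietal cell genes and gastrin summed to 4077 to 7423 RPKM in Sox2 WT and 4587 to 7178 RPKM in Sox2 KO, and smooth muscle genes to 446 to 707 and 416 to 674 RPKM. All 5 and all 6 of these genes were tested, 0 passed (limma and voom), 0 reached an unadjusted p of 0.05, and the medians were 0.26 and -0.01. Gast, the gastrin gene, gave the largest single level in the first sum, 2766 to 6383 RPKM (0.04, SE 0.421). The parietal genes set Sox2 WT replicate 2 apart: the proton pump gene Atp4b was at 429.6, 1656 and 209 RPKM in Sox2 WT and 745, 815 and 423 RPKM in Sox2 KO (0.26, SE 0.696), and the intrinsic factor gene Gif at 302, 856 and 236 RPKM against 551, 662 and 405 RPKM (0.42, SE 0.466). That is the library in which Zg16, Clca3, Fcgbp, Spink4 and Agr2 were lowest, and the part of its parietal cells in their levels was not tested. Without it, the log2 fold change was 3.67 for Zg16, 1.80 for Clca3, 0.88 for Fcgbp and 0.99 for Spink4. The muscle genes Acta2 (-0.00, SE 0.208), Tagln (0.06, SE 0.236) and Actg2 (-0.13, SE 0.309) showed small differences.

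Type 2 immune genes were measured as well, since interleukin 13 is known to raise goblet products such as intelectin and Clca1. Of 15 genes 9 were tested and 0 passed (limma and voom). At an unadjusted p of 0.05 (limma) 3 were higher, where 2.11% of all tested genes were. Chi3l3, a chitinase-like gene of alternatively activated macrophages, was at 1.08, 12.8 and 1.35 RPKM in the 3 Sox2 KO libraries and at most 0.218 RPKM in Sox2 WT. It was highest in Sox2 KO replicate 2, as Itln1, Spink4 and Tff3 were, and its part in their levels was not tested. The other genes higher at that threshold were the mast cell protease genes Mcpt1 (1.53, SE 0.485) and Mcpt2 (0.66, SE 0.217). Both had every Sox2 KO library above every Sox2 WT library, as 4.09% of all tested genes did. They were highest in Sox2 KO replicate 2, and their part in the members' levels was not tested. Retnla, a resistin-like gene, was at 27.6 RPKM in that library and at 8.59 to 10.5 RPKM in the other 5 (0.51, SE 0.384). Il4 had 0, 0 and 3 reads in Sox2 WT and 7, 4 and 4 in Sox2 KO. Stat6 (-0.01, SE 0.120) and Il13ra1 (0.09, SE 0.168), which carry the interleukin 13 signal, differed little in RNA level. Il13 itself had 0 to 3 reads a library. RNA levels do not measure signalling, and its part in the members' levels was not tested.

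Genes whose profile over the 6 libraries was near to the median profile of the tested members were Saa3, Ear11, Ccl8, Prap1, Alox5, Celf4 and Spib. Nearness is the root mean square difference of row-centred log2(RPKM + 0.5) values, and it ran from 0.22 for Saa3 to 0.39 for Spib. The median profile was lowest in Sox2 WT replicate 2, at -1.38, and highest in Sox2 KO replicate 2, at 0.95. Among the members, Spink4 was nearest to it, at 0.27, and Itln1 and Zg16, with wider profiles, were 1.84 and 1.42 away. The nearest gene, Saa3, averaged 0.801 ± 0.387 RPKM in Sox2 WT against 3.05 ± 0.948 RPKM in Sox2 KO (SD, n = 3 each), from 6 to 63 reads a library. Prap1, an intestinal epithelial gene at 0.35 from the median profile, averaged 2.93 ± 1.72 against 8.96 ± 2.44 RPKM (SD, n = 3 each). Since these genes were picked by the members' profile, their differences between the groups describe that choice.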

How the data were processed

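RNA sequencing of 6 pylorus libraries (HiSeq) was available as 1 table of RPKM made by the authors, and as 1 file a library whose values were equal to that table's. The submitters' processing notes name CASAVA 1.7, STAR and the mm10 build; for counting tool, annotation and strand use, nothing is given in the sources used here. Deposited RPKM values gave whole reads for 100% of the 23538 genes above 0, within a tolerance of 1e-05, and their denominators matched trimmed-mean-of-M-values scaling of the read sums within 0.015%, so the deposited levels already carry a scaling between libraries.

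RPKM were taken to log2(RPKM + 0.5), genes with a mean under 0.5 RPKM were left out, and limma 3.58.1 in R 4.3.3 compared Sox2 KO with Sox2 WT over the 14045 genes left, with a trended variance and Benjamini-Hochberg adjustment. The adjusted p of 0.05 is the threshold. limma's voom was run on the recovered reads as an alternative. Its other alternatives were the pseudocount, the filter, rescaling, variance settings, a replicate block, sex as a covariate and each library left out. The fits were tested on simulated data. Intervals and floors cover counting error only.

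The members and all gene lists were chosen with earlier results of these data known. Genes named from a list are the 3 with the highest mean RPKM and the 1 with the largest absolute log2 fold change. Relatives of the members are all named. Slc5a1 and Galnt5 were named outside that rule after their values were seen. Retnlb, Atoh1, Cdx1, Cdx2, Il4, Il13, Mcpt1, Mcpt2, Alpi, Lyz1, Sis, Mep1a, Lct, Mep1b, Cdh17, Mttp, Ang4, Defa17 and Defa24, and the genes neighbouring members, were named outside that rule after their values were seen. The 8 nearest genes were taken among those with a mean of at least 1 RPKM, and 1 of them is not reported here. Gene coordinates are those of GENCODE release M21 on mm10, in which 37607 identifiers were matched. RefSeq promoters on GRCm38.p6 were searched for the motifs; promoters of Zg16, Clca3, Spink4 and Tff3 were not used here.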

Additional observations from a re-analysis of the deposited data

How the results depend on the processing

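The median log2 fold change of the 8 tested members, 1.30, kept its sign under 18 other settings and ran from 0.93, with sex as a covariate, to 1.58. Leaving out 1 library each in turn gave 0.94 to 1.58 for that median and 0 to 1 members past the threshold. The 1 member was Zg16 without Sox2 WT replicate 1, where sex and genotype cannot be told apart, and Itln1 without Sox2 KO replicate 1. The cause was not tested. At an adjusted p under 0.1 the number was also 1, Itln1, since the threshold is wider. With sex as a covariate, the log2 fold change was 2.84 for Zg16, 0.82 for Spink4 and 0.30 for Spdef. Over the alternatives Itln1 ran from 4.46 to 5.56, Clca3 from 1.80 to 3.27 and Fcgbp from 0.68 to 1.94, and Spdef from -0.05 to 0.30, the 1 member whose sign changed. Over all genes, the limma fit called 4 genes, voom 8, the fit with sex as a covariate 1, and the fits without 1 library 1 to 8. Replicate numbers did not pair the libraries: same-numbered libraries had correlations of 0.00879, 0.0970 and -0.0740. With the replicate block the median stayed at 1.30, 0 members and 0 list genes passed, the log2 fold change of Sox2 was -3.72 and 1 gene was called in all. Agr2 ran from -0.71 to -0.24. Reg4, with 0 to 1 reads a library, was limited by depth.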
